A study of Mus musculus with 45 samples.

Results

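The spread of expression between single mouse oocytes of the same group was measured in 45 libraries, which are all 45 of the series, each made from 1 oocyte. Follicles had been rebuilt by placing an oocyte into a follicle whose own oocyte was taken out, and these reconstituted chimeric follicles (RCF) were then cultured. The groups were AY, with 6 aged oocytes each put among young somatic cells, AA, with 12 aged oocytes among aged somatic cells, YY, with 11 young oocytes among young somatic cells, in vitro young, with 8 oocytes of young mice from in vitro culture, and in vivo young, with 8 oocytes of young mice that had no culture. The labels give no strain, age in weeks or meiotic stage, and they name no animal, so p-values measure the scatter of these libraries only, be its origin technical or biological. The genes were the 5518 of 55357 in the table with a mean of at least 20 CPM (read counts scaled to a common library total) in every group, and 91.5% of them were protein coding. The quantity compared was the scatter of log2 CPM around the group mean and not the mean itself, after each library had been thinned at random to 418703 counts, the total of the shallowest library.

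A fully grown oocyte is nearly silent in transcription and lives on RNA that it stored while it grew. That store is held by RNA-binding proteins, shortened and lengthened at its poly(A) tails and cleared in waves as meiosis resumes, so the RNA content of an oocyte at any moment reflects what was stored and what has been removed since. Spread between oocytes is of interest in ageing because egg quality varies from one oocyte to the next within a single ovary.

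Total counts ranged from 418703 to 2201980 per library. All 12 oocyte markers (such as Zp3, an egg coat protein, and Gdf9, an oocyte growth factor) were present in every group, and their summed level lay between 13779 and 28730 CPM in all libraries. The 11 granulosa cell markers other than Serpine2, which follicle cells express, summed to a median of 119 CPM in AY, 127 CPM in AA, 75.96 CPM in YY, 84.1 CPM in in vitro young and 63.7 CPM in in vivo young oocytes, and 1 to 3 of them were at 0 in each group. Their range was widest in AA (85.3 to 373 CPM, against 57.5 to 109 CPM in YY), and their part in the spread was not tested. Library numbers in the labels fall into runs of near-consecutive numbers: AA is 1 run (S268 to S279), YY is 2 (S198 to S202 and S225 to S231), AY is 2 (S234 alone and S240 to S244), in vitro young is 3 and in vivo young is 2. The labels do not say what a run stands for. No run holds 2 groups, so run and group cannot be told apart, and spread is therefore given both around the group mean and around the mean of each run. S234, alone in its run, has no distance from a run mean, so every AY value around run means rests on the other 5 oocytes.

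The first question was whether aged oocytes in aged follicles were more variable than young oocytes in young follicles. Around their group means they were the tighter group, and around run means no difference passed the test. The spread per oocyte, which is the median over the 5518 genes of the distance of that oocyte from its group mean in log2 CPM, had a lowest value of 0.201, a median of 0.217 and a highest of 0.235 in AA, against 0.208, 0.244 and 0.304 in YY. All 12 AA oocytes lay below the median YY oocyte, and 8 of 11 YY oocytes lay above the highest AA oocyte. AA oocytes averaged 0.217 ± 0.009 (SD, n = 12), against 0.253 ± 0.032 for YY oocytes (SD, n = 11), which is a difference of -0.036 (two-sided permutation test over oocytes with 100000 resamples, p = 0.00057, Benjamini-Hochberg adjusted over 5 comparisons p = 0.00285). Measured around the mean of each run, the difference was -0.0095 and did not pass the test (permutation test, adjusted p = 0.265). It also did not pass with the 5 YY oocytes of S198 to S202 alone (-0.0078, exact permutation test, adjusted p = 0.800) or with the 6 of S225 to S231 alone (-0.011, exact permutation test, adjusted p = 0.373).

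**Figure D1:**
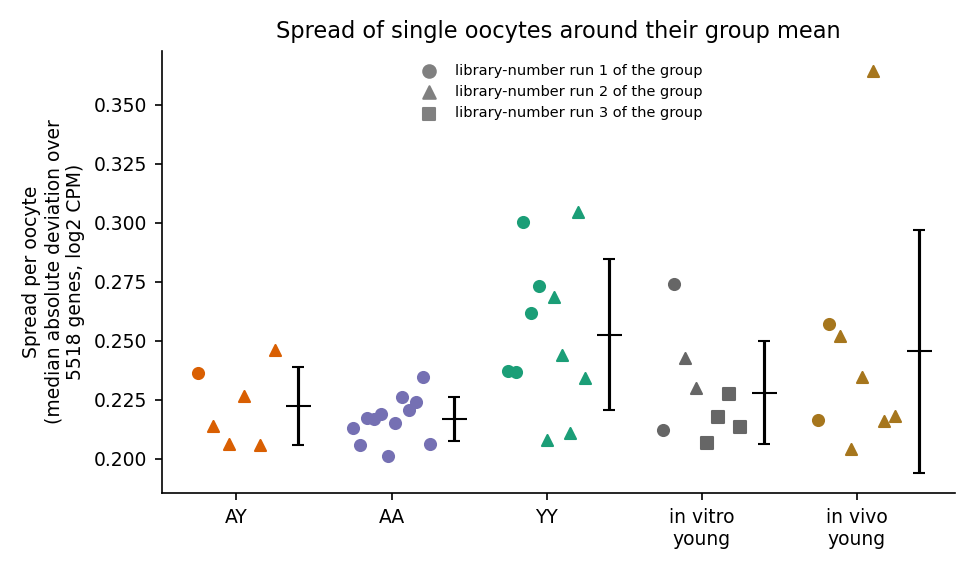
Spread per oocyte (vertical axis, median over 5518 genes of the absolute deviation from the group mean in log2 CPM; axis does not start at 0) for AY, AA, YY, in vitro young and in vivo young; each point is 1 oocyte, its shape is the run of library numbers within the group, and the bar is mean ± SD. AA oocytes lie between 0.201 and 0.235, YY oocytes between 0.208 and 0.304, and 1 in vivo young oocyte stands alone at 0.364.

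Aged oocytes moved into young follicles had a spread per oocyte of 0.206 to 0.246 with a median of 0.220, against 0.201 to 0.235 with a median of 0.217 in AA. The AY and AA groups overlapped over most of their range. The means were 0.222 ± 0.017 in AY (SD, n = 6) and 0.217 ± 0.009 in AA (SD, n = 12), and the difference of 0.006 did not pass the test (exact permutation test, two-sided p = 0.356, adjusted p = 0.445). Against YY (0.253 ± 0.032, n = 11) the AY mean differed by -0.030, with 5 of 6 AY oocytes below the YY median (exact permutation test, p = 0.0487, adjusted p = 0.122). Around run means, with 5 AY oocytes, that difference was -0.0089 (exact permutation test, adjusted p = 0.632).

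For the young oocytes, the question was whether culture or transfer added spread. YY exceeded in vitro young by 0.025 (0.253 ± 0.032, n = 11, against 0.228 ± 0.022, n = 8; exact permutation test, p = 0.0801, adjusted p = 0.134). Around run means that difference was 0.0058 (exact permutation test, adjusted p = 0.632). With the YY oocytes of S198 to S202 alone it turned to -0.0035 (exact permutation test, adjusted p = 0.829). In vitro young oocytes differed from in vivo young oocytes by -0.017 (0.228 ± 0.022 against 0.245 ± 0.051, n = 8 each; exact permutation test, p = 0.480, adjusted p = 0.480). The in vivo mean rests on replicate 6, at 0.364 the highest of all 45 oocytes and also the deepest library before thinning; without it the difference was 0.002.

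Gene by gene, YY had the highest median SD around group means and in vivo young around run means. The median SD of log2 CPM over the 5518 genes, corrected for the number of oocytes in the group, was 0.333 in AY, 0.336 in AA, 0.380 in YY, 0.346 in in vitro young and 0.373 in in vivo young oocytes. Around run means these became 0.328, 0.336, 0.346, 0.331 and 0.360 in AY, AA, YY, in vitro young and in vivo young. The in vivo young SDs lean on replicate 6. Without it, the median log2 SD ratio of in vitro young against in vivo young was 0.049 in place of -0.109 (around group means, not corrected for group size). The SD was smaller in AA than in YY for 62.7% of genes around group means and for 53.8% around run means. Around group means, the difference between AA and YY was larger for abundant RNAs. The SD was smaller in AA for 58.1% of the 1765 genes at 20 to 50 CPM. It was smaller in AA for 78.4% of the 111 genes above 1000 CPM, where the median SD was 0.161 in AA and 0.232 in YY. Whether this trend with level holds around run means was not tested. Counting error alone gives an SD of about 0.353 at 20 to 50 CPM and 0.054 above 1000 CPM, so counting error makes up most of the SD of the less abundant genes.

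**Figure D2:**
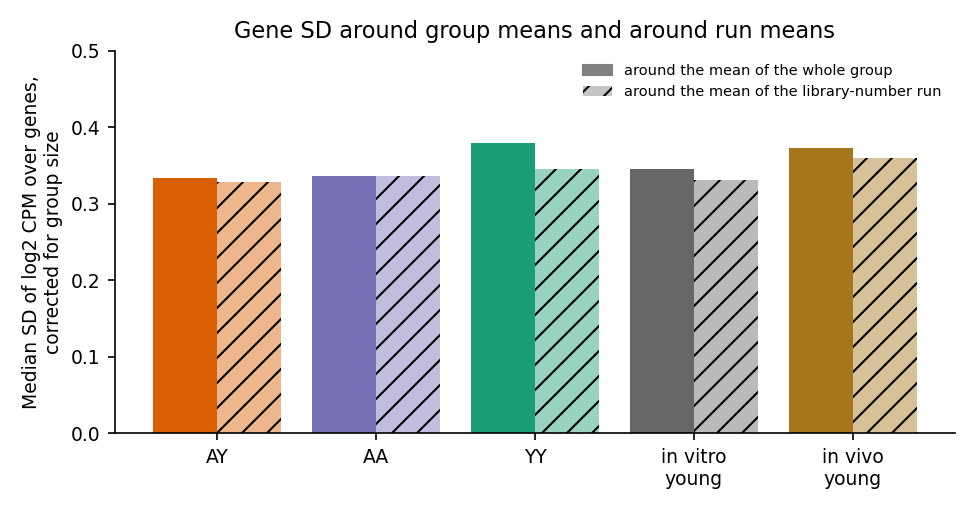
Median SD of log2 CPM over 5518 genes (vertical axis, corrected for group size) in AY, AA, YY, in vitro young and in vivo young, around the mean of the whole group (solid bars) and around the mean of each run of library numbers (hatched bars). AA, a single run, is at 0.336 in both, and YY is at 0.380 around its group mean and 0.346 around its run means.

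Single genes were tested with limma on the absolute deviations, all 45 libraries in 1 fit, and called at a Benjamini-Hochberg adjusted p below 0.05. In AA against YY, 53 genes (0.96% of 5518) had a smaller spread in AA and 4 (0.0725%) a larger one, with 589 and 117 at an unadjusted p below 0.05. Only 5 genes were called around run means, 3 smaller and 2 larger. Of the YY variance of the 53 genes, a median of 60.7% lay between the 2 YY runs, against 15.8% over all genes. The calls also depend on the centre: with deviations taken from the group median, 1 gene was called.

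Pabpn1l, Wee2, Cct5, Shcbp1, Papolg, Nlrp14, Supt16 and mt-Co1 were among these 53 genes. Around run means none of the 8 was called (limma, adjusted p = 0.2105 to 0.999). Pabpn1l is an oocyte-specific poly(A)-binding protein needed for clearance of maternal RNA. It was at 1488 to 3199 CPM in AA with a median of 1912 CPM, against 532 to 3332 CPM in YY with a median of 2477 CPM. The YY oocytes split: 7 were at 1764 CPM or higher and 4, all of S225 to S231, were at 532 to 591 CPM. Its SD was 0.33 in AA and 1.14 in YY, and the mean absolute deviation differed by -0.82 ± 0.11 on the log2 CPM scale (SE; limma, adjusted p = 2.23e-06). With the S198 to S202 oocytes alone as YY, the log2 ratio of mean deviations was 0.28 in place of -2.09. Of 16 alternatives, 13 kept the call, 2 lost it and 1 turned its direction. Between the YY runs lay 36.5% of the YY variance of Pabpn1l.

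Lypd3, a cell-surface protein of the Ly6 family, had the smallest adjusted p (limma, 9.15e-12), but its mean level also differed by 1.75 log2 units. It was at 42.3 to 92.9 CPM in all 12 AA oocytes and at 54.0 to 76.9 CPM in all 6 AY oocytes. In YY it was at 51.8 to 102 CPM in S198 to S202 and at 0 to 11.1 CPM in S225 to S231. Both control groups were split too, with 4 of 8 in vitro young oocytes and 4 of 8 in vivo young oocytes at or below 11.5 CPM.

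Wee2, the oocyte kinase that keeps CDK1 inhibited during meiotic arrest, was at 835 to 1179 CPM in AA, against 764 to 978 CPM in the S198 to S202 YY oocytes and 468 to 608 CPM in the S225 to S231 ones. Its SD of 0.14 in AA and 0.41 in YY differed (limma, adjusted p = 0.0111), yet 90.1% of its YY variance lay between the runs, and around run means the log2 ratio of deviations was 0.01. Cct5, a subunit of the chaperonin that folds actin and tubulin, was at 964 to 1200 CPM in AA, against 418 to 984 CPM in YY. Its SD was 0.086 in AA and 0.417 in YY (limma, adjusted p = 0.00778), with no overlap between the YY runs (811 to 984 CPM and 418 to 681 CPM).

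Shcbp1, an SHC-binding protein of dividing cells, had an SD of 0.20 in AA and 0.59 in YY (limma, adjusted p = 0.00689), with 82.7% of the YY variance between runs. Papolg, a poly(A) polymerase, had an SD of 0.25 in AA and 0.53 in YY (adjusted p = 0.00886 by limma), with 72.3% between runs. Nlrp14, of the oocyte Nlrp family, and Supt16, a subunit of the FACT histone chaperone, were called as well (limma, adjusted p = 0.0453 and 0.0317), with 67.3% and 64.1% of the YY variance between runs. The mean level of Nlrp14 also differed by 1.15 log2 units. Its call was lost in 17 of the 23 fits that left out 1 library and in 13 of 16 alternatives. Supt16 lost its call in 8 of those 23 fits and in 12 of 15 alternatives. The AA SD of Supt16 (0.17) lies under the SD of about 0.181 that counting error alone gives at 100 to 300 CPM. Its contrast may therefore be overstated.

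The genes with a larger spread in AA included Sar1b, Manba and Nedd4. The mean levels of Sar1b and Nedd4 also differed, by -0.90 and -0.99 log2 units in AA against YY. Sar1b, a GTPase of vesicle export from the endoplasmic reticulum, was at 49.3 to 246 CPM in AA, against 158 to 263 CPM in YY, and its deviations remained larger around run means (limma, adjusted p = 0.00689 around group means and 0.0454 around run means). Its call was lost without AA replicate 5 or 8 (limma, adjusted p up to 0.0869). Manba, a lysosomal mannosidase, was at 92.8 to 394 CPM in AA, against 203 to 274.6 CPM in YY, and was lowest in AA replicates 3, 5 and 9 (limma, adjusted p = 0.0317 around the group mean and 0.102 around run means). Its YY SD of 0.14 lies under the SD of about 0.181 that counting error alone gives at 100 to 300 CPM. Its contrast may therefore be overstated. Nedd4, a ubiquitin ligase, was at 7.4 to 71.3 CPM in AA, against 42.2 to 86.9 CPM in YY (limma, adjusted p = 0.0413 around the group mean and 0.122 around run means). It also lost its call in 14 of the 23 fits that left out 1 library.

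In AY against AA, 9 genes (0.163%) had a larger and 1 (0.0181%) a smaller spread in AY, with 252 and 143 at an unadjusted p below 0.05. Spc25, a subunit of the NDC80 kinetochore complex, was at 91.5 and 113 CPM in AY replicates 6 and 1 and at 271.7 to 319 CPM in the other 4, against 214 to 296 CPM in all AA oocytes. Its SD was 0.79 in AY and 0.15 in AA (limma, adjusted p = 0.00307). Tesc, a calcium-binding protein, ran the other way, with 393 and 436 CPM in replicates 1 and 6 and 120 to 183 CPM in the other 4 AY oocytes, against 219 to 423 CPM in AA (limma, adjusted p = 0.012). Mtfr2, a regulator of mitochondrial fission, was at 250.7 and 411 CPM in replicates 1 and 6 and at 4.8 to 18.8 CPM in the other 4, against 189 to 484 CPM in AA. Replicate 1 is S234 and replicate 6 is S244, so these splits were not splits between the runs. Around run means, which leave out replicate 1, Spc25 and Tesc were no longer called (limma, adjusted p = 0.071 and 0.324). In AY against AA 3 genes in place of 10 were then called.

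Etaa1, an activator of the ATR kinase at stalled replication forks, was at 7.1 to 63.3 CPM in AY, against 22.1 to 34.8 CPM in AA, with an SD of 0.97 in AY and 0.20 in AA (limma, adjusted p = 0.00307; 0.00185 around run means). Here the low AY oocytes were replicates 2 and 4. The call was lost without either of them (limma, adjusted p up to 0.446). Rps4x, a ribosomal protein, had an SD of 0.42 in AY and 0.13 in AA (limma, adjusted p = 0.012; 0.0861 around run means). Counting error alone gives an SD of about 0.353 at 20 to 50 CPM, the level of Etaa1, and 0.181 at 100 to 300 CPM, that of Rps4x. The AA SDs of Etaa1 and Rps4x lie under these values, so their contrasts with AA may be overstated. The same holds for Spc25, also at 100 to 300 CPM, with an SD of 0.15 in AA. Ldhb-ps, a pseudogene whose reads may be shared with Ldhb, was at 1237 and 1480 CPM in replicates 1 and 6 and at 2771 to 3501 CPM in the other 4 AY oocytes, against 1321 to 1872 CPM in AA. Its call was lost around run means (limma, adjusted p = 0.315). With deviations from the group median, no gene was called.

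In AY against YY, 8 genes (0.145%) had a larger and 7 (0.127%) a smaller spread in AY, with 160 and 385 at an unadjusted p below 0.05. These comparisons share the AY libraries with those against AA. Stard5, a sterol-binding protein, was at 18.98 to 87.0 CPM in AY, against 35.9 to 70.8 CPM in YY (limma, adjusted p = 0.00302). Cdc37, the kinase co-chaperone of HSP90, was at 28.2 to 118 CPM in AY, against 52.2 to 95.3 CPM in YY. Its adjusted p by limma was 0.0341 around group means and 0.0193 around run means. The call was lost in 11 of 15 alternatives and in 10 of the 17 fits that left out 1 library. The YY SDs of Stard5 (0.24) and Cdc37 (0.22) lie under the SD from counting error alone, about 0.259 at 50 to 100 CPM. Their contrasts with YY may therefore be overstated. Slc23a3, a membrane transporter, was at 9.2 and 25.8 CPM in AY replicates 1 and 6 and at 115 to 170 CPM in the other 4, against 86.9 to 252 CPM in YY (limma, adjusted p = 0.00403). The mean level of Slc23a3 also differed by -0.98 log2 units. Around run means Stard5 and Slc23a3 were not called (limma, adjusted p = 0.295 and 0.597). The call of Stard5 was also lost without AY replicate 1 or 4 (adjusted p up to 0.272 by limma). That of Slc23a3 was lost without AY replicate 1 or 6 (adjusted p up to 0.435 by limma). Among the genes with a smaller spread in AY were Pabpn1l, Papolg and Lypd3. Around run means 4 genes were called with a larger spread in AY and 0 with a smaller one. Pabpn1l and Papolg then had adjusted p = 0.499 and 0.887 by limma.

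In YY against in vitro young, 4 genes (0.0725%) had a larger and 1 (0.0181%) a smaller spread in YY, with 381 and 154 at an unadjusted p below 0.05. The larger ones included Pabpn1l (SD 1.14 in YY and 0.38 in in vitro young; limma, adjusted p = 0.00065) and Xab2, a splicing factor (SD 0.79 in YY and 0.31 in in vitro young; limma, adjusted p = 0.0306). Around run means neither was called (limma, adjusted p = 0.218 for Pabpn1l and 0.647 for Xab2). Xab2 also lost its call in 12 of the 19 fits that left out 1 library. The smaller one was Slc23a3, with an SD of 0.43 in YY and 1.51 in in vitro young oocytes, where 4 of 8 oocytes were below 33 CPM. Its mean level also differed by 1.31 log2 units. In in vitro young against in vivo young, limma called 0 genes, with 134 larger and 252 smaller at an unadjusted p below 0.05, and 5 genes around run means.

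The gene lists were read as counts and medians of SDs not corrected for group size. For AA against YY the median log2 SD ratio over all 5518 genes was -0.17 (-0.04 around run means). Of all genes, 62.3% had the smaller SD in AA (53.1% around run means) and 0.96% were called with a smaller spread. The mitochondrially encoded genes stood at -1.13, with an SD of 0.64 in AA and 1.33 in YY, and all 8 had the smaller SD in AA, of which mt-Co1, mt-Nd1 and mt-Rnr2 were called. Around run means the median was -0.58, with all 8 still smaller in AA. The mean level of the 8 genes had an SD of 0.47 in AA and 1.18 in YY around group means. They thus moved largely together and are not 8 separate observations. mt-Co1, a cytochrome oxidase subunit, was at 106 to 327 CPM in AA, against 28.2 to 702 CPM in YY (limma, adjusted p = 0.0163), and 65.3% of its YY variance lay between the runs. The share of counts from the mitochondrial genome was 0.122 ± 0.034% for AA oocytes (SD, n = 12), against 0.272 ± 0.162% for YY oocytes (SD, n = 11), with 0.133% in the S198 to S202 run and 0.387% in the other; its part in the spread was not tested.

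In the lists of the meiotic cycle most genes had the smaller SD in AA, as did most of all genes, and few were called. The SD was smaller in AA than in YY for 16 of 17 genes of the anaphase-promoting complex and spindle checkpoint (median log2 ratio -0.60; median SD 0.28 in AA and 0.41 in YY) and for all 11 of the meiotic cell-cycle switch (-0.40; 0.30 in AA and 0.40 in YY), and none of these 28 was called. Around run means the medians were -0.18 (12 of 17 smaller) and -0.05 (8 of 11). Of 28 kinetochore, spindle and motor genes 21 had the smaller SD in AA (-0.35; -0.10 around run means) with 1 called. Of 15 cohesin and condensin genes 11 did (-0.09; -0.08 around run means) with 0 called. Cdc20, the activator of the anaphase-promoting complex, had an SD of 0.20 in AA and 0.31 in YY. Of 19 dormant and recruited maternal mRNAs 15 had the smaller SD in AA, with Wee2 and Ccnb1 (cyclin B1; SD 0.11 in AA and 0.41 in YY) called. Around run means 10 of these 19 did. For the subcortical maternal complex, which the early embryo needs, 9 of 11 had the smaller SD in AA (median log2 ratio -0.65) and 0 were called. Around run means 7 of these 11 did (-0.22).

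A few lists ran the other way. Oocyte transcription factors had a median log2 ratio of 0.16 (4 of 11 smaller in AA; 0.13 around run means). The 4 Obox homeobox genes had 0.39 (0 of 4 smaller; 0.46 around run means). Housekeeping lists did not. Proteasome subunits had a median log2 ratio of -0.31 for AA against YY (21 of 31 smaller in AA). Their median SD was 0.212 in AY, 0.221 in AA and 0.252 in YY. Cytosolic ribosomal protein genes had 0.321 in AY, 0.337 in AA and 0.355 in YY (median log2 ratio -0.22 for AA against YY, 27 of 35 smaller in AA).

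**Figure D3:**
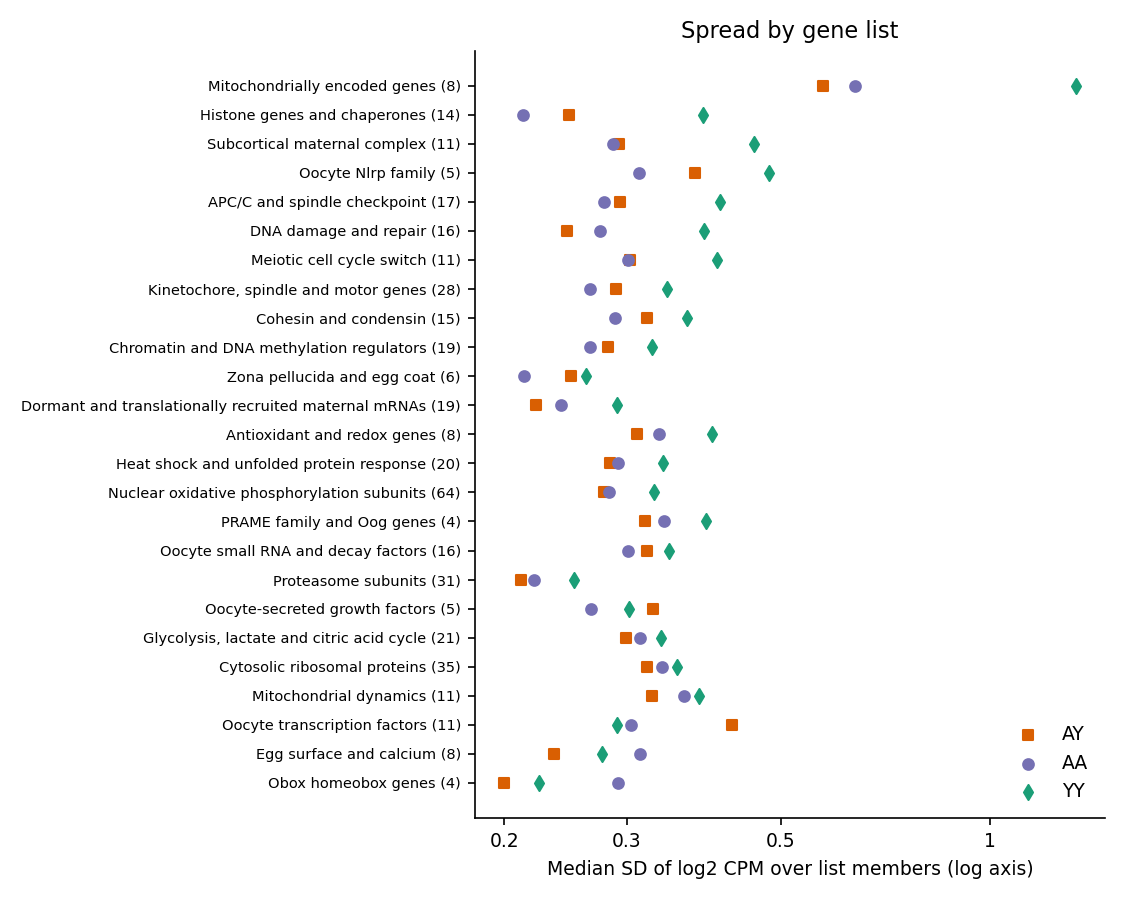
Median SD of log2 CPM over the members of each gene list (horizontal axis, log scale) in AY (squares), AA (circles) and YY (diamonds); the number of members among the 5518 genes is in brackets. The mitochondrially encoded genes lie furthest right, at 0.57 in AY, 0.64 in AA and 1.33 in YY.

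Among the genes with the largest SDs, Oog3, Sspn and Mtfr2 fell into separate levels with a gap of at least 3 log2 units within a group. Others were graded, such as mt-Nd1 at 14.1 to 352 CPM in YY with a median of 115.8 CPM. Oog3, an oocyte gene of the PRAME family with near-identical relatives whose reads may be shared, was at 0 counts in 4 of 6 AY, 3 of 12 AA, 3 of 11 YY, 1 of 8 in vitro young and 0 of 8 in vivo young oocytes, and had at least 967 counts in the other 34. Its SD was 4.48 in AY, 4.12 in AA, 3.96 in YY, 3.24 in in vitro young and 0.29 in in vivo young. When all 45 libraries were ranked by Sspn, a dystrophin-complex membrane protein on chromosome 6 (145877367 to 145910950, mm39), the lowest 11, at up to 40.3 CPM, were the 11 with no Oog3 count, and the next was at 64.6 CPM. The same 11 were the lowest for Arntl2, a clock transcription factor on chromosome 6 (146697553 to 146735028), at up to 13.5 CPM with the next at 19.4 CPM. Of the 11 highest libraries for D6Ertd474e, a long noncoding RNA of chromosome 6 (143191614 to 143242999), 10 had no Oog3 count. These genes were read together after their values were seen, and no test was made.

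Dbt, a subunit of branched-chain keto acid dehydrogenase, was at 2.3 and 14.1 CPM in AY replicates 1 and 6 and at 61.7 to 127 CPM in the rest of AY, and at 5.0 to 27.6 CPM in AA replicates 3, 5 and 9 and 88.2 to 155 CPM in the rest of AA. These partitions of AY and AA are those of Oog3. Dbt was low in the AY oocytes that had Oog3 counts and in the AA oocytes that had none. In the young groups the partitions differed: Dbt was low in YY replicates 2, 5, 6 and 9, in in vitro young replicate 1 and in in vivo young replicates 1 and 2. Mtus2, a microtubule-associated protein, was at 31.1 to 59.5 CPM in S198 to S202 YY oocytes and at 197.5 to 418 CPM in the others. Psg17, a pregnancy-specific glycoprotein, Ankib1, an ankyrin-repeat ubiquitin ligase, Khdc3, of the subcortical maternal complex, and Exd1, a piRNA-pathway factor, had their largest SDs in young oocytes (in vivo young 1.79, YY 1.52, in vivo young 1.51 and in vivo young 1.502).

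**Figure D4:**
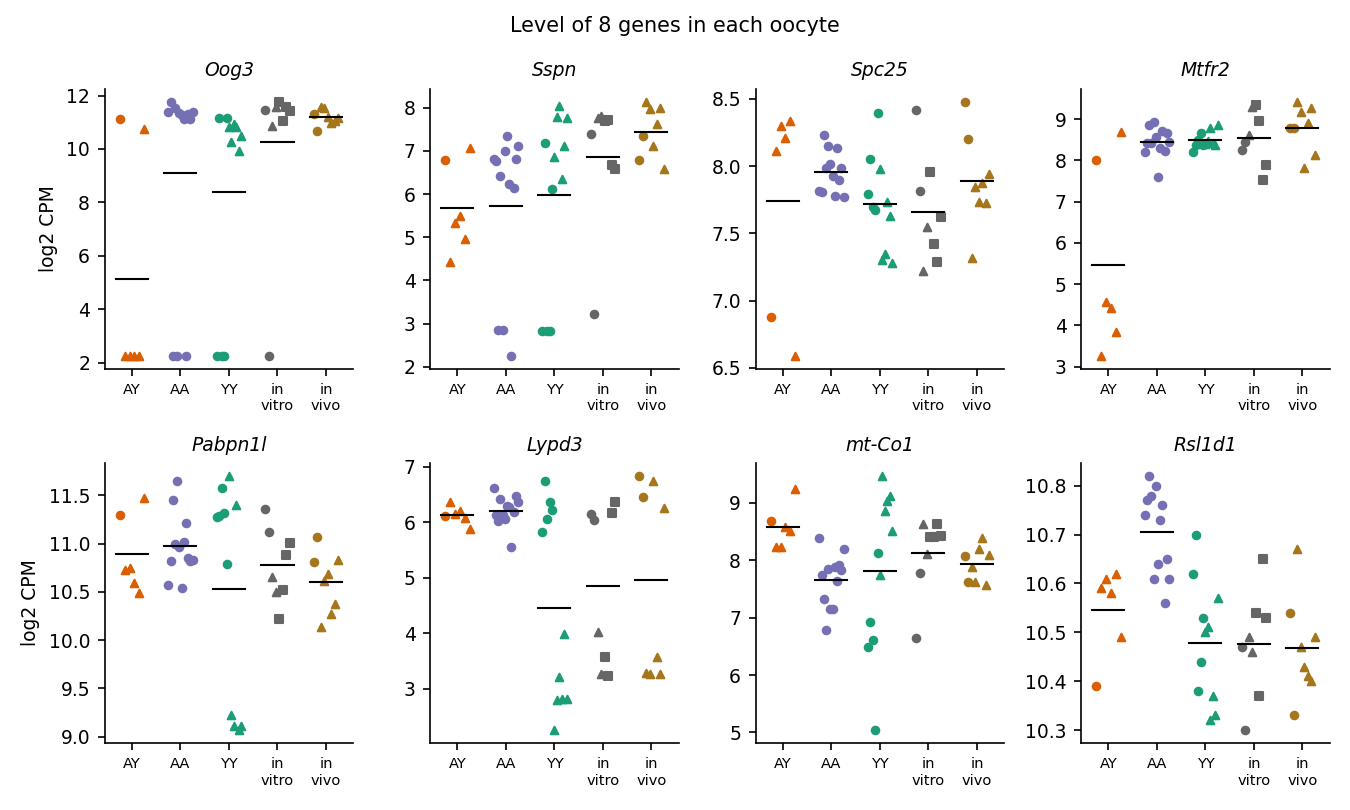
log2 CPM (vertical axis) of 8 genes in each oocyte of AY, AA, YY, in vitro young and in vivo young; each point is 1 oocyte, its shape is the run of library numbers within the group, and the line is the group mean. Oog3, Sspn and Mtfr2 fall into separate levels within a group, with a gap of at least 3 log2 units. Spc25, Pabpn1l and Lypd3 split with smaller gaps. Rsl1d1 stays between 1252 and 1798 CPM in all 45 oocytes (the vertical scale differs between panels).

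At the other end stood genes whose largest SD over the 5 groups was lowest. Rsl1d1, a nucleolar protein, was at 1334 to 1571 CPM in AY, 1508 to 1798 CPM in AA and 1269 to 1654 CPM in YY, and its SD was 0.09 in AY, 0.09 in AA and 0.12 in YY. Npm2, the oocyte nucleoplasmin that remodels sperm chromatin, and Spin1, an abundant maternal chromatin reader at 7324 to 10630 CPM, had SDs of at most 0.13. Tpd52, Smn1 and Rpl4, a ribosomal protein, had SDs of at most 0.14. These genes lie at 300 to 1000 CPM, where counting error alone gives an SD of about 0.106. Their scatter therefore cannot be told from counting error.

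The promoters of 4 genes are shown as examples, from RefSeq on GRCm38.p6. Each runs from 250 bases before to 50 after the annotated start and is written along the gene's strand. The genes are Oog3, Sspn and Arntl2, which were lowest in the oocytes with no Oog3 count, and Rsl1d1, the steadiest gene. Capitals mark each CG dinucleotide, the site of DNA methylation: Oog3 has 1 (chr4:144162602-144162901, minus strand), Sspn 2 (chr6:145931623-145931922, plus), Arntl2 2 (chr6:146805280-146805579, plus) and Rsl1d1 22 (chr16:11203243-11203542, minus). At most 2 were held by 23.8% of the 27025 promoters listed by RefSeq, and by 3.64% of the 4178 found for the genes studied here. Of the 14 genes named for the largest SD 11 had a promoter in the table, of which 36.4% held at most 2. Of the 8 steadiest 4 had one, of which 25.0% did. Only 75.7% of the genes studied had a promoter in the table, so a comparison of CG content is void. The 4 sequences say nothing of a link between CG and spread.
Oog3: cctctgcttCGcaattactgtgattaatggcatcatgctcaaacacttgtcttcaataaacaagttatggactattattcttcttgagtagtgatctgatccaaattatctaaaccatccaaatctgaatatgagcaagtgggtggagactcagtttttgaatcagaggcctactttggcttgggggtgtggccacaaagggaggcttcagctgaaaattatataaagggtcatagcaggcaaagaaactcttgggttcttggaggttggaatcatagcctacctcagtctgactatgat
Sspn: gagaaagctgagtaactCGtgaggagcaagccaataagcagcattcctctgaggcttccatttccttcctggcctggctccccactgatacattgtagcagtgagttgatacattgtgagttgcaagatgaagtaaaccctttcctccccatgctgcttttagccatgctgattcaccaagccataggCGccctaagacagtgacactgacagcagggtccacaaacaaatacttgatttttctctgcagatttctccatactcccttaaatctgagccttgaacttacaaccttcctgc
Arntl2: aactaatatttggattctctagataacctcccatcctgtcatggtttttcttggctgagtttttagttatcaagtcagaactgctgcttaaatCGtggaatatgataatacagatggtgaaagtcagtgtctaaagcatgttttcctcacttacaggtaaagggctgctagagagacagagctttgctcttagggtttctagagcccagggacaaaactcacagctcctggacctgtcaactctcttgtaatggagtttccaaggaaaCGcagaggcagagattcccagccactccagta
Rsl1d1: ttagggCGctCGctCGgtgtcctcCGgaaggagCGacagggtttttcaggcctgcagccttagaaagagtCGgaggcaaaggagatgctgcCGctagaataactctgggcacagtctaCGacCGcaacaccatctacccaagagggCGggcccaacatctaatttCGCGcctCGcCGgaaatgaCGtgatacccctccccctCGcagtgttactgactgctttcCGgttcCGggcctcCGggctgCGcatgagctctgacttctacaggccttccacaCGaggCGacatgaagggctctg

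Genes that varied in 1 group also tended to vary in the others. Across the 5518 genes, which are not independent of each other, the Spearman correlation of SDs between groups was 0.438 to 0.531, and after the level of the gene was taken into account it was 0.18 to 0.325, highest between YY and in vivo young oocytes. The fifth of genes with the largest level-adjusted spread had a median transcript length of 3192 bases, against 2751 bases in the fifth with the smallest, and a median transcript GC content of 47.1% against 47.4%. The first principal component, taken within each group, held 36.0% of the variance in AY, 18.3% in AA, 31.1% in YY, 24.4% in in vitro young and 30.1% in in vivo young oocytes. A group with fewer oocytes has fewer components, which raises the share of the first. The shares are therefore not comparable between groups of unlike size. Oog3 was the single gene that weighed most on the first component in AY, AA, YY and in vitro young. In YY that component separated the runs of library numbers. The S198 to S202 oocytes lay at -24.8 to -7.09 and the S225 to S231 oocytes at 3.96 to 27.8.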

How the data were processed

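RNA of 45 single oocytes was read as counts per gene; the deposited table holds the authors' whole-number read counts, not normalized. Alignment and counting tools named in the submitters' processing notes are STAR (2.7.8a) and, beside it, HTSeq (0.11.0), with the build mm39; the strand setting and the handling of reads shared by near-identical genes are not given in the sources used here. Per the labels' protocols, amplified cDNA was sequenced with no molecular identifiers named, so counting error is only part of the error.

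Each library was thinned without replacement to 418703 counts. Genes with mean CPM of at least 20 in every group of the deposited counts were kept. Log2 CPM used TMM scaling and a prior count of 2 (edgeR 4.0.16, R 4.3.3). Deviations from the group mean were multiplied by the square root of n/(n-1). Their absolute size was tested per gene with limma 3.58.1 (robust, 1 fit of 45 libraries) and, as the median per oocyte, by permutation over oocytes, exact where a group had fewer than 10. The script was tested on simulated data. No pair of libraries within a group agreed within sampling noise (chi-square per degree of freedom at least 1.98).

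Named genes were, per comparison and direction, the 5 called with the smallest p, a level difference under 1 log2 unit and at least a 1.5-fold difference in deviation; the 5 with the largest SD per group; the 8 whose largest SD was lowest; and per gene list the called member with the smallest p. Gene models without a proper symbol were left out. Lypd3 as a called gene, mt-Rnr2, Ccnb1 and Cdc20 were named after their values were seen. Of 43 genes the rule takes, 4 are not reported here. Genes, groups and the 27 lists were chosen with earlier results of these data known. Alternatives were DESeq2 1.42.0 size factors, other scaling, depths, filters, prior counts, centres and sets of libraries, a replicate block and leaving out each library. Coordinates of genes are those of the deposited table. The correction of gene SDs for group size was chosen after seeing the data.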

Additional observations from a re-analysis of the deposited data

Results flagged for a closer look

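In the groups of 4 to 10 oocytes (AY, in vitro young and in vivo young), single oocytes far from the others of their group were flagged. The measure was the gap to the nearest neighbour relative to the range, and 12 of 123 groups of values examined were flagged. The limit flags about 1 in 20 by chance, but the genes examined had been named by their spread in these same data. The 12 flags therefore cannot be set against that rate. The spread per oocyte of in vivo young replicate 6 was 0.364, with the next at 0.257. The same oocyte was lowest of its group for Cct5 (9.47 log2 CPM, next 9.84) and Wee2 (9.03, next 9.61).

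In vitro young replicate 2 was lowest for Oog3 (2.25 log2 CPM, which is 0 counts, next 10.85), Sspn (3.21, next 6.59) and Smn1 (7.99, next 8.23) and highest for D6Ertd474e (8.66, next 7.87). In vitro young replicate 1 was lowest for Dbt (3.83, next 6.81) and mt-Co1 (6.64, next 7.77). In vivo young replicate 1 was lowest for Khdc3 (2.25, which is 0 counts, next 5.10) and Smn1 (8.15, next 8.37). AY replicate 4 was highest for Nlrp14 (10.99, next 10.23).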

How the results depend on the processing

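Among the 5 comparisons, AA against YY was the 1 whose spread per oocyte passed the test, and it passed under every scaling, depth, filter, prior count, centre and residual tried and with any 1 library left out (difference -0.041 to -0.030), but not around run means (-0.0095) or with YY S198 to S202 alone (-0.0078) or S225 to S231 alone (-0.011). The median log2 SD ratio of -0.17 became 0.042 and 0.023 with those 2 sets, and that of AY against YY became 0.0057 with S198 to S202 alone. That of YY against in vitro young, 0.14, became -0.080 and -0.063 with those sets; the cause was not tested. Correcting SDs for group size, chosen after seeing the data, took the median log2 SD ratio of AY against AA to 0.016, against -0.039 without it. AY against YY passed with deviations from the group median (-0.044), and YY against in vitro young with counts not thinned (0.040).

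Counts of called genes moved more, in the order AA against YY, AY against AA, AY against YY and YY against in vitro young (57, 10, 15 and 5 genes). Around run means they were 5, 3, 4 and 2, with 5 between the in vitro and in vivo young groups. From the group median they were 1, 0, 1 and 0. With squared deviations, AA against YY gave 10, AY against AA 6 and YY against in vitro young 1. Absolute Pearson residuals gave 5 for AY against AA, 3 for AY against YY and 0 for YY against in vitro young. With only the libraries of both groups, AA against YY gave 35, AY against YY 2 and YY against in vitro young 1. Without thinning, AA against YY gave 133 and YY against in vitro young 10. At 600000 counts, AY against AA gave 17, AY against YY 24 and YY against in vitro young 10; a second draw gave the last 13. With mean CPM of at least 5, AA against YY gave 31, YY against in vitro young 8 and the in vitro and in vivo young groups 2; with at least 100, AY against YY gave 7. YY S198 to S202 alone gave 4 for AA against YY, 4 for AY against YY and 1 for YY against in vitro young; S225 to S231 alone gave 16 for AA against YY and 15 for YY against in vitro young.

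Leaving out 1 library gave 20 (without YY replicate 10) to 86 (without YY replicate 6) for AA against YY, 2 to 15 for AY against AA, 6 to 17 for AY against YY, 1 to 11 for YY against in vitro young and 0 to 1 between the in vitro and in vivo young groups. The other differences in spread per oocyte ranged over -0.003 to 0.011 for AY against AA, -0.039 to -0.024 for AY against YY, 0.019 to 0.033 for YY against in vitro young and -0.026 to 0.002 between the in vitro and in vivo young groups. Median log2 SD ratios ranged over -0.19 to -0.14, -0.09 to -0.02, -0.30 to -0.19, 0.11 to 0.21 and -0.18 to 0.05 in the same order of comparisons.

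Replicate numbers are names only: deviations of same-numbered oocytes correlated at -0.21 to 0.235. With a replicate block, 29 genes were called for AA against YY, 6 for AY against AA and 3 for YY against in vitro young.

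With YY S198 to S202 alone, the log2 ratio of mean deviations turned for Pabpn1l (0.28 for AA against YY, 0.80 for AY against YY and -0.66 for YY against in vitro young), Papolg (0.53), Wee2 (0.020) and 1 gene not named (0.052). For Wee2 it was also 0.038 with S225 to S231 alone and 0.0057 around run means. Low counts limit the less abundant genes, and a gene that was not called is not shown to have equal spread.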
